A study of Mus musculus with 93 samples.

Results

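The genes described here carry sugar carbon into fatty acids in the liver. They are Srebf1 and Mlxipl, which code for the transcription factors SREBP-1 and ChREBP, and 7 genes that work under them: Pklr, Acly, Acaca, Acacb, Fasn, Me1, and Thrsp. They were listed by name as genes of de novo lipogenesis and of the last step of glycolysis, with earlier results of these data known. Counts of these genes beside the share of all genes are therefore descriptions. All 9 symbols matched 1 gene each among the 53465 genes of the count table, and all 9 passed the filter on low counts that left 19110 genes.

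Liver RNA was sequenced from 93 male mice of 7 inbred strains, 3 of them derived from wild mice (CAST/EiJ, PWK/PhJ, and WSB/EiJ) and 4 classical ones (129S1/SvImJ, A/J, DBA/2J, and C57BL/6J). The study asked how genetic background shapes the response to a Western diet (WD), so each strain was fed WD or a control diet (CD). All mice were kept at 30°C, which is close to thermoneutrality for a mouse, from 6 wk of age, and CD or WD was given for 17 wk, starting at 7 wk and ending with the death of the mice at 24 wk. The study's methods state that mice were fasted in the morning and killed in the afternoon, so all levels were read after a fast of some hours. CD held 10% of its energy as fat, 73% as carbohydrate, and 17% as protein, and WD held 40%, 43%, and 17%, so WD mice ate less carbohydrate as well as more fat per unit of energy. On CD there were 5 A/J mice, 7 each of 129S1/SvImJ and CAST/EiJ, 8 C57BL/6J, and 6 each of the other strains. On WD there were 6 each of WSB/EiJ, A/J, and 129S1/SvImJ, 7 each of PWK/PhJ and DBA/2J, and 8 each of CAST/EiJ and C57BL/6J. Each sample is the liver of 1 mouse with an unmodified genome, and no other tissue was read here.

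In a hepatocyte, glucose is broken down to pyruvate, mitochondria turn pyruvate into citrate, and citrate that leaves the mitochondria is cut to acetyl-CoA, which is carboxylated and built into palmitate with NADPH. SREBP-1 is made as a precursor in the endoplasmic reticulum membrane and is cut to an active form under insulin, whereas ChREBP is activated by sugar metabolites, and both raise transcription of the enzymes of the route. Polyunsaturated fatty acids are known to lower the lipogenic enzymes of rodent liver, and sterols keep SREBP precursors uncut. The level of Srebf1 mRNA therefore does not give the amount of active protein.

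The promoters show where these factors could bind. RefSeq (GRCm38.p6) windows of 300 bases, from 250 before to 50 after a transcription start, were found for 9 of 9 genes, 14 windows in all, because several of the genes have more than 1 start. Of 4 printed windows, the first is the Pklr start with a carbohydrate response element, the kind of site that ChREBP binds, the next 2 are both Mlxipl starts, and the last is the Fasn start. Sequences run 5′ to 3′ on the strand of the gene, and capitals mark matches to the carbohydrate response element, to the E-box CACGTG, to the sterol response element TCACNCCAC, or to the CCAAT box, on either strand.
Pklr chr3:89136373-89136672 (+): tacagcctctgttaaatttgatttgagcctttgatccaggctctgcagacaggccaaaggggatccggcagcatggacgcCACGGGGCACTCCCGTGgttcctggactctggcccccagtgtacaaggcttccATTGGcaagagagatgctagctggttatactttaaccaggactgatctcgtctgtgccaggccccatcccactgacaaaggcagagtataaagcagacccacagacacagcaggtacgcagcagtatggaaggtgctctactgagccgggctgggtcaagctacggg
Mlxipl chr5:135089640-135089939 (+): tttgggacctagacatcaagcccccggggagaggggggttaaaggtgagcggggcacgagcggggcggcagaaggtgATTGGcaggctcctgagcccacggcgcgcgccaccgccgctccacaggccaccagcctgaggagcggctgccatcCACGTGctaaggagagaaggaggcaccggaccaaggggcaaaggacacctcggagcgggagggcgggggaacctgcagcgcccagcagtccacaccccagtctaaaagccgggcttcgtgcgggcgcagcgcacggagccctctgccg
Mlxipl chr5:135106641-135106940 (+): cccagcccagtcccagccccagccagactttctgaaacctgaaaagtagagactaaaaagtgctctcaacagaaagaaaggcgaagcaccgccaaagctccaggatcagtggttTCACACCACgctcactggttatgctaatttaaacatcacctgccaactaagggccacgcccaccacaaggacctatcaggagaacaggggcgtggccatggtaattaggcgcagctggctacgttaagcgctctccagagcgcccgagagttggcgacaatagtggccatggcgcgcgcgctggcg
Fasn chr11:120824498-120824797 (-): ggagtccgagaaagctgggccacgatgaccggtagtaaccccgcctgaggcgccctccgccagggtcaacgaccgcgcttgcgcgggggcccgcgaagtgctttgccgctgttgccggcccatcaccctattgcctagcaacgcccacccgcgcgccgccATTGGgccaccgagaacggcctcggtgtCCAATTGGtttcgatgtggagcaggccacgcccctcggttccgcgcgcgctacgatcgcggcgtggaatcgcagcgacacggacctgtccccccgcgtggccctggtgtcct

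The Pklr window held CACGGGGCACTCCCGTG from base -170 to base -154, counted from the start, which matches the carbohydrate response element written as CACGNG, 5 bases of any kind, and CNCGNG. It was the only match in the 14 windows, and 0.365% of all 32851 RefSeq windows of this length held one. The sterol response element occurred in 1 of the 14 windows, at the second Mlxipl start from -136 to -128, and in 1.24% of all windows. The E-box also occurred in 1 of the 14, at the first Mlxipl start from -98 to -93, and in 7.15% of all windows. CCAAT boxes, which NF-Y binds, were found in 9 of the 14 windows, against 37.4% of all windows. By gene, 8 of the 9 had one, all but Acaca, but a gene with several windows had several chances, and no share by gene was counted. The only Acaca window, chr11:84195188-84195487, lies inside the annotated gene, which begins at 84129672. In the Fasn window, 2 of its 3 CCAAT boxes overlapped on opposite strands, from -62 to -55. GC boxes (GGGCGG), which are not capitalized, occurred in 5 of the 14 windows, in 4 genes, and in 35.7% of all windows. A match shows letters and not binding, and windows without one may have sites further away or sites of other spelling.

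Each library had between 40020424 and 49894856 reads assigned to genes, with a median of 46618609, and RNA integrity numbers were 7 to 9.7. The mice came from 7 cohorts, 2 or 3 per strain, and each strain's cohorts held both diets. All reads were mapped to the C57BL/6J genome, and unmapped reads made up, on average, from 2.11% in A/J on WD to 13.3% in CAST/EiJ on WD. They were 3.50% on CD and 7.88% on WD in PWK/PhJ, and 4.52% and 7.42% in WSB/EiJ. The part of this in the levels of the genes was not tested. The 9 hepatocyte markers found of 10 listed were read in all 93 mice, as the tissue label says. In C57BL/6J, CD replicate 2 had the lowest CD value of Mlxipl, Pklr, Acacb, Fasn, Me1, and Thrsp, while its summed markers of stellate cells and fibroblasts (905 CPM, read counts scaled to library size) and of cholangiocytes (437) ranked 2 and 3 among the 93 mice. Results of C57BL/6J that move without this mouse are given both ways.

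Levels between genes were compared per length, as RPKM, the read count per kilobase of exon scaled to the size of the library. Taking the median of each of the 14 groups of strain and diet, Thrsp had the highest level, with 36.9 to 244 RPKM, followed by Pklr with 35.1 to 164 RPKM. Mlxipl, at 53.9 to 129 RPKM, varied least in relation to its level. Acly ranged from 22.9 to 154 RPKM, Fasn from 11.6 to 117, Me1 from 7.33 to 112, and Srebf1 from 27.2 to 93.6. Both acetyl-CoA carboxylase genes were lowest, with 2.10 to 26.3 RPKM for Acacb and 2.17 to 10.5 for Acaca. In these bulk samples, fewer cells of a type and less RNA per cell cannot be told apart. All further levels are CPM, with library sizes adjusted by trimmed-mean (TMM) factors, and are compared only within a gene.

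**Figure D1:**
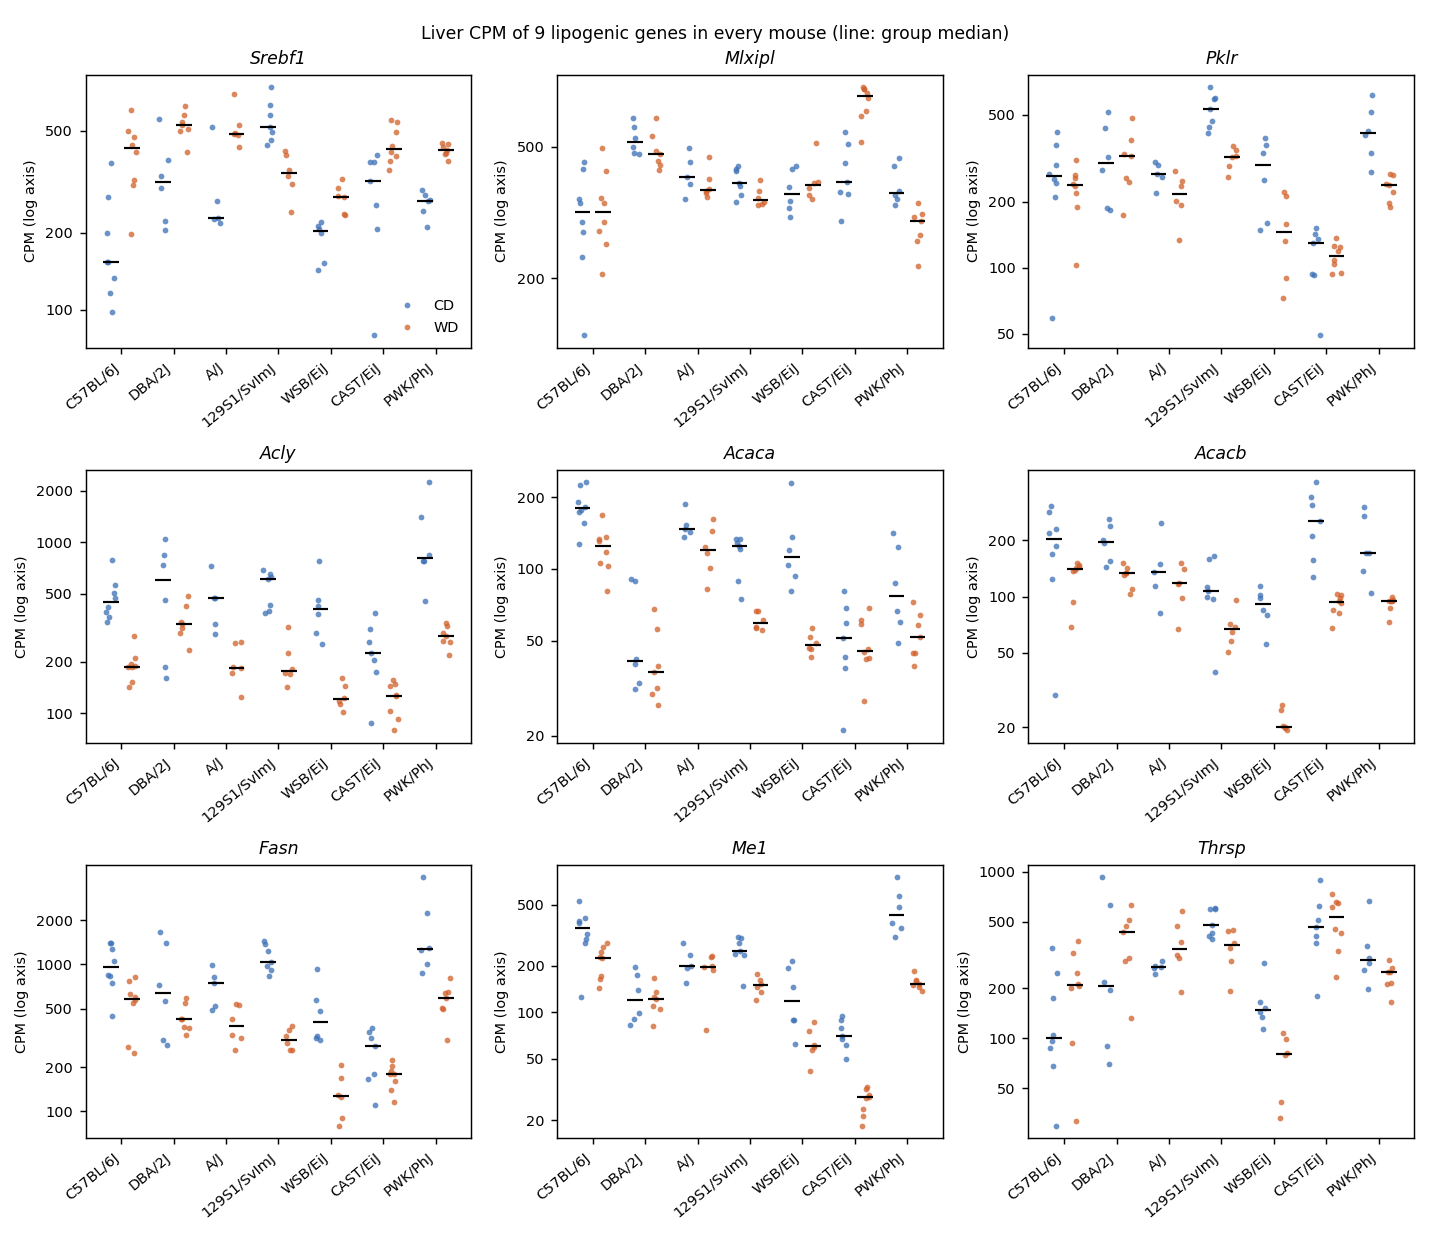
CPM (log axis) of each of the 9 genes in every mouse, by strain, with CD in blue and WD in orange; each point is 1 mouse and the black line is the group median. Acly on WD lies below every CD mouse in 5 strains, Srebf1 lies above CD in WSB/EiJ and PWK/PhJ and below CD in 129S1/SvImJ, and Mlxipl in CAST/EiJ is raised on WD.

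The response to WD was split between the enzymes and Srebf1. Averaged over the 7 strains with equal weight, 6 of the 9 genes were lower on WD at an adjusted p below 0.05 by limma-voom, beside 24.5% of all genes tested, and 1, Srebf1, was higher, beside 27.1% of all genes. In order of size, the mean log2 fold change (WD over CD) was -1.23 for Acly, -1.13 for Fasn, -0.90 for Acacb, -0.80 for Me1, -0.59 for Acaca, and -0.41 for Pklr, and it was 0.59 for Srebf1. Mlxipl, at 0.02 (95% confidence interval -0.09 to 0.13), and Thrsp, at -0.07 (-0.39 to 0.24), did not pass the test. The median log2 fold change of the 9 genes was -0.59, beside 0.01 for all genes tested.

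How many of the 9 genes changed differed from strain to strain. WD downregulated 7 of them in WSB/EiJ, where 3.97% of all genes were called lower, and 7 in PWK/PhJ, where 14.5% were. In 129S1/SvImJ 6 were lower, beside 13.6% of all genes, in C57BL/6J 4 beside 11.9%, in CAST/EiJ 3 beside 9.73%, and in A/J 1 beside 4.64%. In DBA/2J, none of the 9 was called lower by limma-voom, beside 7.77% of all genes, although 2 (Fasn and Acacb) had an unadjusted p below 0.05, and 1 was called by edgeR and 2 by DESeq2. The median log2 fold change of the 9 genes ran from -1.23 in WSB/EiJ, -0.85 in PWK/PhJ, and -0.73 in 129S1/SvImJ to -0.02 in CAST/EiJ, while the median of all genes stayed between -0.01 and 0.02 in every strain. In C57BL/6J, 2 genes rather than 4 were lower without CD replicate 1, CD replicate 3, or WD replicate 7, and 5 were lower without CD replicate 2. Without the filter on low counts, limma-voom called 3 genes lower in WSB/EiJ (Acaca, Acacb, and Acly) and 0 in A/J, where 2 had an unadjusted p below 0.05 with the filter and edgeR and DESeq2 each called 1.

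Fewer of the genes were higher on WD. They were Srebf1 and Mlxipl in CAST/EiJ, 2 of 9 beside 9.77% of all genes, and Srebf1 alone in C57BL/6J (14.3% of all genes), DBA/2J (10.2%), A/J (4.39%), and PWK/PhJ (15.1%). None was higher in 129S1/SvImJ by limma-voom, beside 14.5% of all genes, with 0 at an unadjusted p below 0.05 and 0 by edgeR or DESeq2. None was higher in WSB/EiJ, beside 4.97%, with 1 (Srebf1) at an unadjusted p below 0.05 and 0 by edgeR or DESeq2. Without CD replicate 2 or CD replicate 3, no gene was higher in DBA/2J. Without CD replicate 5, 1 was higher in CAST/EiJ, and without WD replicate 3, 2 were higher in C57BL/6J, Srebf1 and Thrsp.

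**Figure D2:**
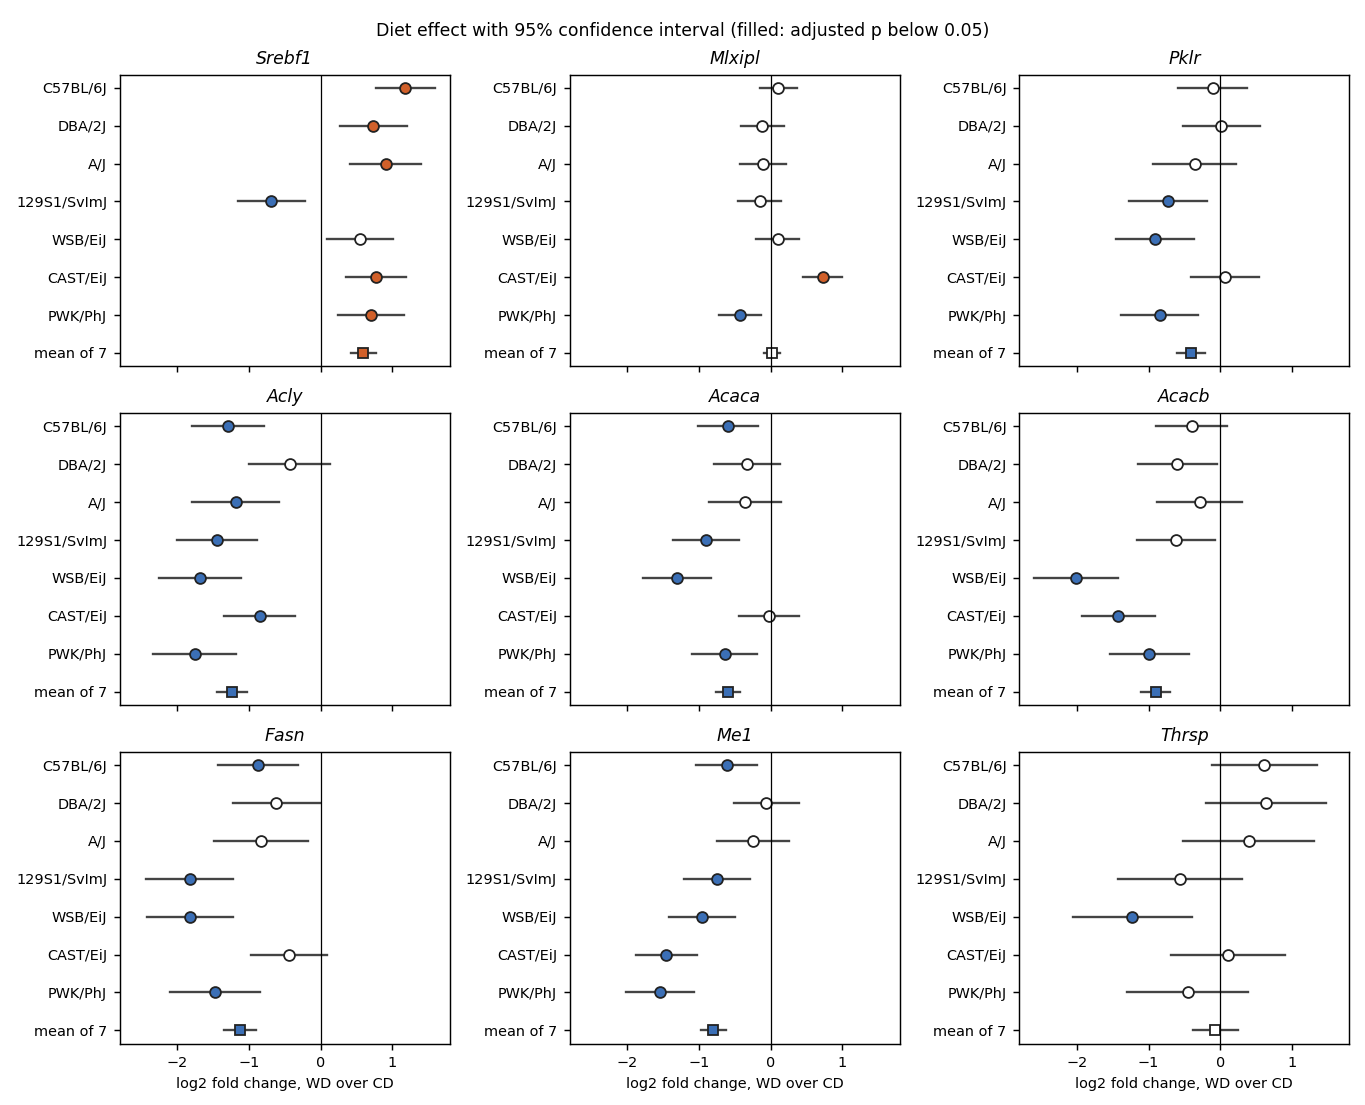
Log2 fold change (WD over CD) of the 9 genes in each strain (circles) and averaged over 7 strains (squares), with 95% confidence intervals from limma-voom; filled symbols have an adjusted p below 0.05, orange for higher and blue for lower on WD. Acly and Srebf1 show the most filled symbols, 6 lower strains for Acly and 5 higher with 1 lower for Srebf1.

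Srebf1 (ENSMUSG00000020538, chr11:60199089-60222581 of GRCm38, reverse strand) was upregulated in 5 strains and downregulated in 129S1/SvImJ. In C57BL/6J, CD mice had 98.1 to 375 CPM with a median of 154, and WD mice had 197 to 605 with a median of 428, which was the largest rise (log2 fold change 1.18 ± 0.21 SE, adjusted p = 5.09e-06). In PWK/PhJ, CD mice had 211 to 294 CPM (median 267) and WD mice had 380 to 447 (median 422), so that the groups were fully separate (0.70 ± 0.23, adjusted p = 0.0154). The 5 A/J CD mice had 228, 225, 517, 267, and 219 CPM, and 6 WD mice had 432 to 697 with a median of 487 (0.90 ± 0.25, adjusted p = 0.0127). A single A/J CD mouse thus reached into the range of WD, and the other 4 lay below every WD mouse.

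The increase of Srebf1 was 0.77 ± 0.21 in CAST/EiJ (adjusted p = 0.00528) and 0.73 ± 0.23 in DBA/2J (adjusted p = 0.0176). WSB/EiJ mice had 143 to 221 CPM on CD (median 203) and 234 to 325 on WD (median 276), which did not overlap, but the difference of 0.55 ± 0.23 had an adjusted p of 0.134. In 129S1/SvImJ the order was turned round: CD mice had 440 to 743 CPM (median 518) and WD mice had 240 to 416 (median 342), again without overlap (-0.69 ± 0.23, adjusted p = 0.0194). Srebf1 on CD was highest in 129S1/SvImJ, at 552 ± 107 CPM (SD, n = 7), which is 2.94 times the level of C57BL/6J, the lowest. Of 15 combinations of strain and cohort, the mean Srebf1 level was higher on WD in 13 and lower in 2, and those 2 were the 129S1/SvImJ cohorts (-0.89 and -0.56).

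Calls of Srebf1 were lost in 129S1/SvImJ without WD replicate 6 (log2 fold change -0.59, adjusted p = 0.065), in DBA/2J without CD replicate 2 (0.61, adjusted p = 0.0748) or CD replicate 3 (0.63, adjusted p = 0.0632), and in CAST/EiJ without CD replicate 5 (0.49, adjusted p = 0.0851), all by limma-voom. Counts are per gene, so the Srebf1 forms SREBP-1a and SREBP-1c were not told apart, and 109 exon bases are shared with Rai1 on the other strand, whose median count was 749 beside 16468 for Srebf1.

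Mlxipl (ENSMUSG00000005373, chr5:135089890-135138382, forward strand) codes for ChREBP and changed in 2 strains, in opposite directions. CAST/EiJ mice had 299 to 556 CPM on CD (median 392) and 518 to 760 on WD (median 715), and 7 of 8 WD mice lay above every CD mouse (0.73 ± 0.14, adjusted p = 4.98e-05). PWK/PhJ mice had 333 to 464 CPM on CD (median 362) and 218 to 338 on WD (median 298), and 6 of 7 WD mice lay below every CD mouse (-0.42 ± 0.15, adjusted p = 0.0209). In the other 5 strains, the log2 fold change was between -0.15 and 0.11 and did not pass the test. The PWK/PhJ call was lost without CD replicate 1 (-0.39, adjusted p = 0.0539), WD replicate 2 (-0.37, adjusted p = 0.0631), or CD replicate 5 (-0.37, adjusted p = 0.0703), by limma-voom. Between strains, mean Mlxipl varied 1.69-fold on CD, the least of the 9 genes, and 2.39-fold on WD.

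Pklr (ENSMUSG00000041237, chr3:89136142-89146784, forward strand) codes for the pyruvate kinase of liver and red cells, which makes pyruvate in the last step of glycolysis. It was downregulated in PWK/PhJ, from 275 to 615 CPM on CD (median 413) to 189 to 267 on WD (median 239), without overlap (-0.85 ± 0.27, adjusted p = 0.012). In 129S1/SvImJ, CD mice had 415 to 671 CPM (median 529) and WD mice had 259 to 361 (median 322), also without overlap (-0.73 ± 0.27, adjusted p = 0.0358). In WSB/EiJ, CD mice had 149 to 392 CPM (median 293) and WD mice had 72.5 to 221.7 (median 145), and these overlapped (-0.91 ± 0.27, adjusted p = 0.0196). The other 4 strains gave log2 fold changes of -0.36 to 0.07, and CAST/EiJ had the lowest Pklr on both diets, with means of 114 and 113 CPM.

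The Pklr calls of WSB/EiJ and 129S1/SvImJ were lost when certain single mice were left out, although the log2 fold changes stayed negative. By limma-voom, the WSB/EiJ call was lost without WD replicate 3 (-0.79, adjusted p = 0.0684), WD replicate 4 (-0.73, adjusted p = 0.0895), CD replicate 4 (-0.85, adjusted p = 0.0527), CD replicate 5 (-0.79, adjusted p = 0.0681), or CD replicate 6 (-0.82, adjusted p = 0.0613). The 129S1/SvImJ call was lost without any 1 of 7 of its 13 mice, CD replicates 1, 2, 3, and 6 and WD replicates 2, 4, and 6, with log2 fold changes of -0.74 to -0.67 and adjusted p-values of 0.051 to 0.0757. Pklr shares 711 exon bases with Hcn3 on the other strand, which had a median count of 891.

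Acly (ENSMUSG00000020917, chr11:100476353-100528000, reverse strand) codes for ATP citrate lyase, which cuts citrate to acetyl-CoA in the cytosol. It was downregulated in 6 of the 7 strains, more than any other of the 9 genes, and in 5 strains every WD mouse had less than every CD mouse. In PWK/PhJ, CD mice had 455 to 2243 CPM (median 811) and WD mice had 219 to 336 (median 285), a log2 fold change of -1.75 ± 0.29 (adjusted p = 1.33e-06). In WSB/EiJ, Acly went from 256 to 773 CPM (median 405) to 102 to 160 (median 121), or -1.68 ± 0.29 (adjusted p = 1.01e-05). These groups did not overlap, nor did those of the next 3 strains, although in A/J the lowest CD and highest WD mice were close.

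In 129S1/SvImJ, Acly was 384 to 688 CPM on CD (median 611) and 142 to 318 on WD (median 176), or -1.44 ± 0.28 (adjusted p = 4.28e-05). In C57BL/6J, it was 341 to 786 CPM on CD (median 446) and 144 to 282 on WD (median 188), or -1.29 ± 0.25 (adjusted p = 4.39e-05). The 5 A/J CD mice had 730, 471, 469, 333, and 290 CPM, and WD mice had 125 to 263 (median 185), or -1.18 ± 0.30 (adjusted p = 0.00664). CAST/EiJ, whose groups overlapped, had 87.5 to 388 CPM on CD and 79.6 to 157 on WD (-0.85 ± 0.25, adjusted p = 0.00926). DBA/2J was the exception, with 161 to 1049 CPM on CD (median 600) and 235 to 485 on WD (median 331), so that WD lay inside the range of CD (-0.43 ± 0.28, adjusted p = 0.328). By cohort, the mean DBA/2J difference was 0.07 in cohort 4 and -0.86 in cohort 5. Without the filter on low counts, the Acly calls of A/J (adjusted p = 0.0634) and CAST/EiJ (adjusted p = 0.265) were lost by limma-voom.

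Acaca and Acacb code for both acetyl-CoA carboxylases, which make malonyl-CoA. The product of Acaca works in the cytosol and feeds fatty acid synthase, and that of Acacb sits at the mitochondrial surface, where malonyl-CoA holds back the entry of fatty acids for oxidation. Acaca (ENSMUSG00000020532, chr11:84129672-84401651, forward strand) was downregulated in 4 strains. In WSB/EiJ it was 81.2 to 229 CPM on CD (median 112) and 42.8 to 56.4 on WD (median 47.8), without overlap (-1.30 ± 0.24, adjusted p = 4.47e-05). In 129S1/SvImJ it was 75.1 to 134 CPM on CD (median 125) and 55.3 to 66.9 on WD (median 59.2), without overlap (-0.90 ± 0.23, adjusted p = 0.0016). PWK/PhJ (-0.64 ± 0.23, adjusted p = 0.0252) and C57BL/6J (-0.59 ± 0.21, adjusted p = 0.0277) had overlapping groups.

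The Acaca calls of both strains with overlap were also lost when certain single mice were left out. By limma-voom, the C57BL/6J call was lost without CD replicate 1 (-0.54, adjusted p = 0.0599), CD replicate 3 (-0.55, adjusted p = 0.0587), or WD replicate 7 (-0.51, adjusted p = 0.0688). The PWK/PhJ call of Acaca was lost without CD replicate 1 (-0.52, adjusted p = 0.0938), CD replicate 3 (-0.48, adjusted p = 0.114), WD replicate 5 (-0.60, adjusted p = 0.0502), or WD replicate 6 (-0.57, adjusted p = 0.057). In CAST/EiJ, Acaca was 21.1 to 81.0 CPM on CD (median 51.2) and 27.9 to 68.4 on WD (median 45.4), with a log2 fold change of -0.02 ± 0.21.

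Acacb (ENSMUSG00000042010, chr5:114146535-114250761, forward strand) was called lower by limma-voom in 3 strains, all derived from wild mice, and in each of them every WD mouse was below every CD mouse. WSB/EiJ mice had 55.8 to 114 CPM on CD (median 91.6) and 19.3 to 26.3 on WD (median 20.2), a log2 fold change of -2.01 ± 0.29 (adjusted p = 3.02e-07), the largest of any of the 9 genes in any strain. CAST/EiJ mice had 127 to 409 CPM on CD (median 253) and 67.7 to 103 on WD (median 93.6), or -1.42 ± 0.26 (adjusted p = 1.92e-05). PWK/PhJ mice had 104 to 302 CPM on CD (median 170) and 72.9 to 99.6 on WD (median 94.6), or -0.99 ± 0.28 (adjusted p = 0.00369). Within WD, all WSB/EiJ mice lay below all mice of the next strain, 129S1/SvImJ, whose lowest value was 50.9 CPM.

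The other 4 strains had Acacb differences of -0.62 to -0.29 that did not pass the test. In C57BL/6J, CD replicate 2 had 29.9 CPM beside a group median of 202, and without it Acacb was lower on WD by limma-voom (-0.74, adjusted p = 0.005, instead of -0.40, adjusted p = 0.246). The C57BL/6J difference also passed with edgeR (-0.59, adjusted p = 0.0484) and DESeq2 (-0.58, adjusted p = 0.0451). In 129S1/SvImJ, Acacb passed without WD replicate 1 (-0.72, adjusted p = 0.0484) or CD replicate 7 (-0.85, adjusted p = 0.0127), by limma-voom.

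The balance of both carboxylases differed between strains. The ratio of Acacb to Acaca, each in RPKM, had a median of 8.78 in CAST/EiJ on CD (2.78 to 25.9) and 7.32 in DBA/2J on CD (4.72 to 10.9), but 1.30 in WSB/EiJ (0.766 to 2.48) and 1.50 in 129S1/SvImJ (0.934 to 2.29). On WD it was 3.06 in CAST/EiJ (2.21 to 6.52), 7.18 in DBA/2J (3.25 to 7.87), and 0.771 in WSB/EiJ (0.695 to 0.900). WSB/EiJ on WD was thus the only group in which all mice had less Acacb than Acaca. These ratios were not tested, and their level depends on the exon lengths taken.

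Fasn (ENSMUSG00000025153, chr11:120805846-120824547, reverse strand) codes for fatty acid synthase, which builds palmitate. It was downregulated in 4 strains, in 3 of them without overlap. In 129S1/SvImJ, CD mice had 835 to 1454 CPM (median 1032) and WD mice had 259 to 378 (median 307), or -1.83 ± 0.31 (adjusted p = 2.6e-06). In WSB/EiJ, CD mice had 305 to 933 CPM (median 404) and WD mice had 79.8 to 206 (median 127), also -1.83 ± 0.30 (adjusted p = 5.9e-06). In PWK/PhJ, CD mice had 868 to 3919 CPM (median 1277) and WD mice had 306 to 806 (median 587), or -1.48 ± 0.32 (adjusted p = 0.000145). These 3 strains had separate groups, and C57BL/6J had overlapping ones (-0.87 ± 0.28, adjusted p = 0.0137).

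In A/J, Fasn was 990, 744, 819, 489, and 520 CPM in 5 CD mice and 263 to 538 on WD (median 378), a difference of -0.83 ± 0.33 with an adjusted p of 0.101. The A/J difference was close in size to that of C57BL/6J, but only the latter passed the test. In DBA/2J it was -0.62 ± 0.30 (adjusted p = 0.162), and it passed with edgeR (-0.91, adjusted p = 0.0247), with DESeq2 (-0.90, adjusted p = 0.0172), and by limma-voom without CD replicate 2 (-0.86, adjusted p = 0.0477). By cohort, the DBA/2J difference was 0.05 in cohort 4 and -1.26 in cohort 5. Mean Fasn was lower on WD in 14 of the 15 combinations of strain and cohort, and DBA/2J cohort 4 was the other one.

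Me1 (ENSMUSG00000032418, chr9:86581371-86695953, reverse strand) codes for cytosolic malic enzyme, which makes NADPH for fatty acid synthesis. It was downregulated in 5 strains. In PWK/PhJ, CD mice had 308 to 752 CPM (median 431) and WD mice had 138 to 184 (median 153), or -1.54 ± 0.24 (adjusted p = 2.52e-07). In CAST/EiJ, CD mice had 49.8 to 94.1 CPM (median 70.3) and WD mice had 18.4 to 32.5 (median 28.2), or -1.45 ± 0.21 (adjusted p = 2.51e-07). Both had separate groups, and all CAST/EiJ mice on WD lay below all WD mice of every other strain. The groups overlapped in WSB/EiJ (-0.95 ± 0.23, adjusted p = 0.00299), 129S1/SvImJ (-0.74 ± 0.23, adjusted p = 0.0108), and C57BL/6J (-0.61 ± 0.21, adjusted p = 0.0256).

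In DBA/2J, Me1 was 82.3 to 197 CPM on CD (median 119) and 81.8 to 167 on WD (median 122), with a log2 fold change of -0.06 (95% confidence interval -0.51 to 0.39). The C57BL/6J call of Me1 was lost by limma-voom without CD replicate 1 (-0.56, adjusted p = 0.0554), CD replicate 3 (-0.50, adjusted p = 0.0846), WD replicate 3 (-0.52, adjusted p = 0.0652), or WD replicate 7 (-0.56, adjusted p = 0.0506), and in a separate fit of the strain (adjusted p = 0.0753). Between strains, Me1 varied 6.49-fold on CD and 8.11-fold on WD, where C57BL/6J was highest (216 ± 50.3 CPM, n = 8) and CAST/EiJ lowest (26.6 ± 5.05 CPM, n = 8).

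Thrsp (ENSMUSG00000035686, chr7:97412938-97417730, reverse strand) codes for Spot 14, a small protein that promotes lipogenesis and is induced by thyroid hormone and carbohydrate. It was downregulated in WSB/EiJ, from 113 to 285 CPM on CD (median 148) to 33.3 to 107 on WD (median 80.7), without overlap (-1.23 ± 0.42, adjusted p = 0.0481). This call was lost by limma-voom without any 1 of 9 of the 12 mice, CD replicates 1, 3, 4, 5, and 6 and WD replicates 2, 3, 4, and 6, with log2 fold changes of -1.28 to -1.02 and adjusted p-values of 0.0518 to 0.14. In C57BL/6J, Thrsp was 29.8 to 348 CPM on CD (median 100) and 31.8 to 382 on WD (median 208), and 0.61 ± 0.37 did not pass the test. Without WD replicate 3 it did (0.96, adjusted p = 0.0352). In DBA/2J it was 70.1 to 927 CPM on CD (median 206) and 131 to 630 on WD (median 434), and the standard errors of Thrsp, 0.37 to 0.46 in all strains, were the largest of the 9 genes.

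Whether these diet effects differed between strains was tested directly with an F test over the 7 effects. The diet effect differed for 8 of the 9 genes by limma-voom, beside 36.5% of all genes tested. The adjusted p was 0.000144 for Srebf1, 0.00025 for Mlxipl, 0.000467 for Me1, 0.00229 for Acacb, 0.0102 for Fasn, 0.02 for Acaca, 0.0402 for Thrsp, and 0.0471 for Acly, and 0.0619 for Pklr, which did not pass. Srebf1, Mlxipl, Me1, Acacb, and Fasn kept the call when any 1 of the 93 mice was left out. Acaca lost it without WSB/EiJ CD replicate 5 (adjusted p = 0.0506), and the number of genes was then 5 instead of 8. Acly lost it in 48 of the 93 fits (adjusted p of 0.012 to 0.119) and Thrsp in 14 (0.00627 to 0.0794), and Pklr gained it in 14 (0.0283 to 0.0945), without C57BL/6J CD replicate 2 among others. Acly did not pass with edgeR (adjusted p = 0.0824), DESeq2 (0.0582), or quality weights (0.0526), Thrsp did not pass with edgeR (0.0716), and without the filter on low counts the test passed for 3 genes, Srebf1, Mlxipl, and Me1. Pklr passed with DESeq2 (adjusted p = 0.0441), and in limma-voom with cohort within strain as a covariate (0.0273) or with quality weights (0.0157).

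Setting 1 strain against the mean of the other 6 showed where these differences lay. In 129S1/SvImJ 1 of the 9 genes was called, beside 6.28% of all genes, Srebf1, whose log2 diet effect was 1.50 below the mean of the other strains (-1.50 ± 0.25, adjusted p = 7.46e-05). In CAST/EiJ 3 genes were called, beside 14.5%, with Mlxipl at 0.82 ± 0.15 (adjusted p = 5.87e-05), Me1 at -0.76 ± 0.23 (adjusted p = 0.0179), and Acaca at 0.67 ± 0.23 (adjusted p = 0.041). In PWK/PhJ 2 genes were called, beside 16.3%, with Me1 at -0.86 ± 0.26 (adjusted p = 0.0129) and Mlxipl at -0.52 ± 0.16 (adjusted p = 0.0161). In WSB/EiJ 1 gene was called, beside 0.947%, Acacb at -1.29 ± 0.31 (adjusted p = 0.0219). In DBA/2J 2 were called, beside 7.77%, with Acly at 0.94 ± 0.31 (adjusted p = 0.0432) and Me1 at 0.86 ± 0.25 (adjusted p = 0.0187), which means a smaller decrease than elsewhere. None of the 9 genes was called by limma-voom in C57BL/6J (2 at an unadjusted p below 0.05, beside 4.69% of all genes called) or in A/J (2 at an unadjusted p below 0.05, beside 0.466%), and these differences were not tested with edgeR or DESeq2.

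Of these 9 differences, those of Srebf1 in 129S1/SvImJ, Mlxipl in CAST/EiJ, and Me1 in PWK/PhJ passed with any 1 mouse left out and under each of 6 other settings of limma-voom. The difference of Me1 in CAST/EiJ passed with any 1 mouse left out but not without the filter on low counts (adjusted p = 0.358). Without that filter, Acacb in WSB/EiJ (adjusted p = 0.378), Me1 and Acly in DBA/2J, and Acaca in CAST/EiJ did not pass either, and Acly in DBA/2J also did not pass with quality weights. The difference of Acacb in WSB/EiJ was lost without CD replicate 3 of that strain (adjusted p = 0.0511), and that of Mlxipl in PWK/PhJ without WD replicate 2 or CD replicate 5 (adjusted p up to 0.0549). In DBA/2J, the Me1 difference was lost without CD replicate 2 or 4 (adjusted p up to 0.0634). The Acly difference in DBA/2J was lost without CD replicate 2, 3, or 4, WD replicate 2, 4, 5, 6, or 7, or A/J CD replicate 1, with values of 0.64 to 1.18. The Acaca difference in CAST/EiJ was lost without CD replicate 5, 6, or 7, WD replicate 2, 4, 6, or 8, C57BL/6J WD replicate 3, or A/J CD replicate 1, with values of 0.47 to 0.79, and also with cohort as a covariate.

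On CD, before any effect of WD, the level of all 9 genes differed between strains by an F test in limma-voom, as did 93.7% of all genes tested. Fasn spanned the widest range of strain means, 7.02-fold, from 252 ± 99.8 CPM in CAST/EiJ (SD, n = 7) to 1766 ± 1161 in PWK/PhJ (n = 6), followed by Me1 at 6.49-fold, Pklr at 4.67-fold, and Acly at 4.59-fold. For each of these 4 genes, CAST/EiJ was the lowest strain. The Fasn mean of PWK/PhJ included a mouse at 3919 CPM, so the order of the genes depends on the use of means. Group medians ran from 277 CPM in CAST/EiJ to 1277 in PWK/PhJ for Fasn and from 70.3 to 431 for Me1. By medians, the range of Me1 was thus wider than that of Fasn. Against the mean of the other 6 strains, CAST/EiJ on CD differed for 7 of the 9 genes, beside 63.9% of all genes: Fasn was lower by -1.83, Me1 by -1.61, Pklr by -1.57, Acly by -1.25, and Acaca by -1.16 on the log2 scale, while Thrsp (0.92) and Acacb (0.80) were higher.

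Other strains had other patterns on CD. PWK/PhJ differed for 4 genes, beside 58.6% of all genes, all of them higher, with log2 differences of 1.49 for Me1, 1.33 for Fasn, 1.24 for Acly, and 0.70 for Pklr. C57BL/6J differed for 6, beside 57.9%, with more Acaca (1.07), Me1 (0.91), and Fasn (0.53) and less Thrsp (-1.39), Srebf1 (-0.75), and Mlxipl (-0.48). In 129S1/SvImJ, 6 genes differed, beside 44.2%, with more Srebf1 (1.19), Pklr (1.10), Thrsp (1.09), Fasn (0.78), and Me1 (0.47) and less Acacb (-0.63). When the strains were ordered by mean level on CD, the mice of neighbouring strains overlapped for each of the 9 genes.

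On WD the level of all 9 genes also differed between strains, as did 93.8% of all genes. Against the other strains, WSB/EiJ then differed for 8 of the 9 genes, beside 52.0% of all genes, and all 8 were lower, by -2.20 for Acacb, -2.18 for Thrsp, -1.55 for Fasn, and -0.93 to -0.44 on the log2 scale for Me1, Acly, Pklr, Srebf1, and Acaca. CAST/EiJ differed for 7, beside 66.4%, with less Me1 (-2.38), Fasn (-1.03), Pklr (-1.01), Acly (-0.81), and Acaca (-0.49) and more Thrsp (1.13) and Mlxipl (0.89). Neighbouring strains were fully separate at 4 places on WD: Acaca between A/J and 129S1/SvImJ, Acacb between 129S1/SvImJ and WSB/EiJ, Fasn between 129S1/SvImJ and CAST/EiJ, and Me1 between WSB/EiJ and CAST/EiJ. The share of all genes with such gaps was not counted on either diet, so these gaps are not read as particular to the 9 genes. Comparisons on CD and on WD share no mice, but comparisons of 1 strain with the others share the mice of the others.

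Mice of the same strain and diet varied together in these genes. Log2 CPM was taken as the deviation from the mean of the group, and all 36 pairs of genes then had a positive Pearson's r over the 93 mice, with a median of 0.548. By permutation within groups with Benjamini–Hochberg adjustment over the 36 pairs, 35 passed, and 19 pairs had the smallest p that 100000 permutations can give, 1e-05. The closest pair was Fasn and Acly, with r = 0.831 and Spearman's rho = 0.803 (permutation p = 1e-05 for each, adjusted p = 1.89e-05), and r was 0.803 without the 2 mice farthest from the median and 0.787 with cohort removed. All 10 pairs among Fasn, Acly, Acaca, Me1, and Pklr had r of 0.658 to 0.831. The pair that did not pass was Srebf1 and Acacb (r = 0.237, adjusted permutation p = 0.11, rho = 0.347, adjusted permutation p = 0.00256). Pairs of other genes were not compared in this way. The counts of positive and passing pairs are therefore not read as particular to the listed genes.

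Srebf1 followed Fasn from mouse to mouse (r = 0.610, rho = 0.628, adjusted permutation p = 1.89e-05 for each, r = 0.588 without the 2 farthest mice and 0.580 with cohort removed) and in all 7 strains (r of 0.368 to 0.903). Over the 14 group means, by contrast, r of Srebf1 and Fasn was -0.10, a description of groups that differ in strain and diet. Mlxipl and Me1 likewise had an r of -0.65 over the 14 group means. Pairs with Mlxipl had r of 0.389 to 0.748 in the 45 CD mice and of -0.199 to 0.348 in the 48 WD mice, and this difference between diets was not tested. The r of Mlxipl and Acacb, 0.399 (adjusted permutation p = 0.0134), was 0.154 without C57BL/6J CD replicate 2, and its rho of 0.201 had an adjusted permutation p of 0.0803.

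**Figure D3:**
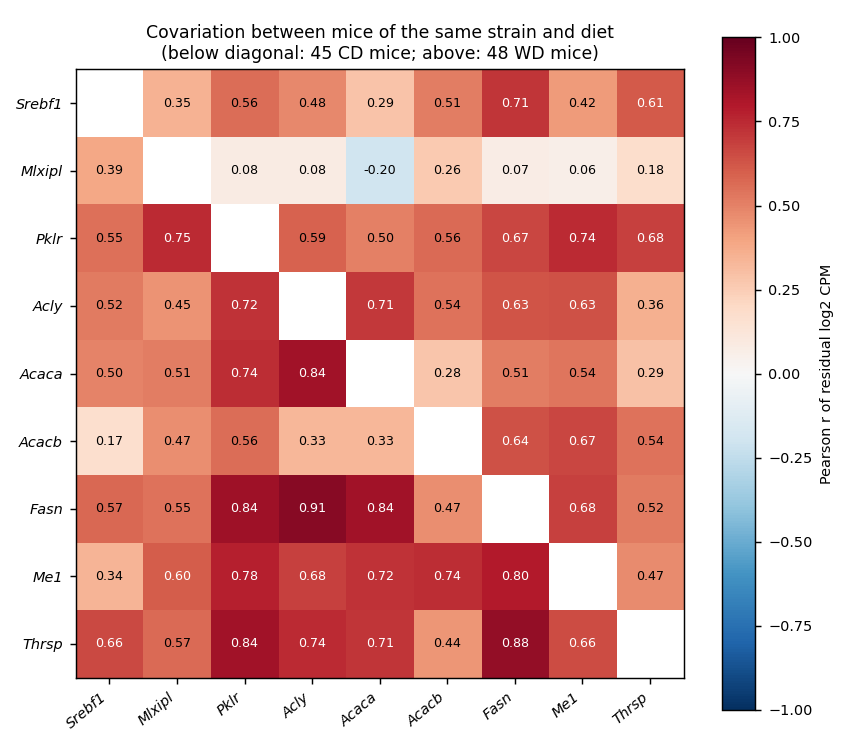
Pearson's r between pairs of the 9 genes over mice, from log2 CPM after the mean of each group was subtracted, for 45 CD mice (below the diagonal) and 48 WD mice (above). All CD pairs are positive, up to 0.907 for Fasn and Acly, and the Mlxipl pairs on WD are the palest, from -0.199 to 0.348.

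Genes around the 9 were read from 4 lists, which were also chosen with earlier results of these data known. In the list of sugar entry and glycolysis, 7 of 14 genes were lower and 5 higher for the mean diet effect, beside 24.5% and 27.1% of all genes tested. Tkfc, the triokinase that phosphorylates glyceraldehyde from fructose, was lower by -0.57 ± 0.07 (adjusted p = 2.51e-11) and was called lower in 4 strains, A/J, 129S1/SvImJ, WSB/EiJ, and PWK/PhJ. Gpi1, which turns glucose 6-phosphate into fructose 6-phosphate, was lower by -0.30 ± 0.04 (adjusted p = 1.3e-09) and was called lower in 129S1/SvImJ, WSB/EiJ, and PWK/PhJ, 3 strains in which Fasn, Acaca, and Pklr were also called lower.

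In the list of citrate, acetyl-CoA, and NADPH supply, 6 of 9 genes were lower and 2 higher for the mean diet effect. Acss2, which makes acetyl-CoA from acetate, was lower by -0.96 ± 0.10, G6pdx, the first enzyme of the pentose phosphate route, by -0.72 ± 0.10, and Slc25a1, the mitochondrial citrate carrier, by -0.37 ± 0.03. Slc25a1 exports the citrate that the Acly product cuts, and it was called lower in 5 strains. G6pdx had its largest decrease in PWK/PhJ (-2.22), where Me1, described above as a source of NADPH, also had its largest decrease. Pcx, which makes oxaloacetate from pyruvate, was higher (0.23 ± 0.03).

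Of 16 genes that control SREBP-1 and ChREBP, 9 were lower for the mean diet effect by limma-voom, and the other 7 did not pass the test. Insig1, which holds SREBP precursors in the endoplasmic reticulum and is itself an SREBP target, was lower by -1.16 ± 0.08 (adjusted p = 5.68e-21) and was called lower in all 7 strains, while Srebf1 was called higher in 5. Txnip, a known ChREBP target, was lower by -1.14 ± 0.10 and was called in 6 strains, all but PWK/PhJ (-0.53). Scap, the escort of SREBP precursors, was lower by -0.49 ± 0.04. Mid1ip1, a relative of Thrsp that activates acetyl-CoA carboxylase, was lower by -0.45 ± 0.11 on average, with -1.54 in 129S1/SvImJ, -1.005 in WSB/EiJ, and 1.03 in CAST/EiJ as its calls in single strains.

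Of 11 genes of fatty acid modification and glycerolipid synthesis, 7 were lower and 1 higher. The higher one was Scd1, the desaturase that makes oleate from stearate, at 0.86 ± 0.11 (adjusted p = 4.01e-10), and it was called in 5 strains. It was not called in A/J (0.94, adjusted p = 0.0558) or in PWK/PhJ (0.04, adjusted p = 0.939). Elovl6, which lengthens palmitate (-0.86 ± 0.09), Fads1, a desaturase of polyunsaturated fatty acids (-0.64 ± 0.05), and Pnpla3, a lipase-like gene of lipid droplets (-1.15 ± 0.30), were lower. Fasn and Elovl6 thus moved the same way, and Scd1, the next enzyme on palmitate and stearate, moved the other way.

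**Figure D4:**
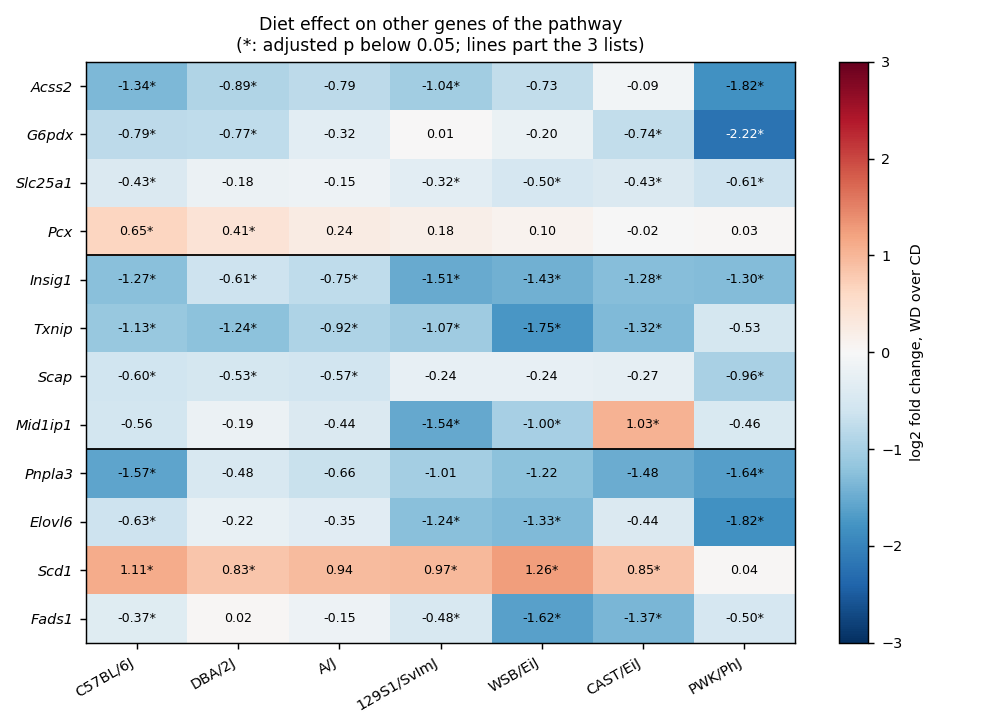
Log2 fold change (WD over CD) in each of the 7 strains for 12 genes around the 9, 4 from each of 3 lists (citrate, acetyl-CoA, and NADPH supply; control of SREBP-1 and ChREBP; fatty acid modification and glycerolipid synthesis), with * for an adjusted p below 0.05. Scd1 is red in 6 strains and near 0 in PWK/PhJ (0.04), and Insig1 is blue with * in all 7.

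The genes whose group means were most like those of the 9 were sought among 11140 genes over the 14 groups. For the mean of the 9 genes, these were Ank (r = 0.918), Slc25a1 (0.897), Rassf7 (0.860), Camk4 (0.852), and Orc3 (0.849). For Srebf1 alone, they were Map2k3 (0.823), Nhlrc1 (0.782), and Hs1bp3 (0.778), and for Mlxipl alone Ss18l1 (0.908), Nudt7 (0.859), and Marf1 (0.848). These values describe 14 groups that share strains and diets and were picked as the highest of many.

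Markers of several cell types moved with diet in these livers. Of 10 leukocyte markers, 8 were called higher on WD in 129S1/SvImJ, 7 in PWK/PhJ, 6 in C57BL/6J, 3 in WSB/EiJ, and at most 1 in the other strains, and none was at 0 in any mouse. For the 4 named strains, in that order, the share of all genes called higher was 14.5%, 15.1%, 14.3%, and 4.97%. Their summed level went from 133 to 237 CPM on CD to 291 to 413 on WD in 129S1/SvImJ, from 38.4 to 226 to 209 to 289 in PWK/PhJ, from 239 to 496 to 400 to 721 in C57BL/6J, and from 127 to 181 to 110 to 339 in WSB/EiJ. The summed level of 9 hepatocyte markers was lower on WD without overlap in 5 strains, PWK/PhJ (125700 to 153200 CPM on CD and 81570 to 108200 on WD, 5 markers called lower), WSB/EiJ (160700 to 198200 and 86410 to 124300, 4 markers), C57BL/6J (124100 to 142800 and 81160 to 104600, 5 markers), A/J (199500 to 235000 and 143200 to 169500, 5 markers), and CAST/EiJ (122400 to 145400 and 84960 to 106400, 1 marker). The groups overlapped in 129S1/SvImJ (112300 to 146500 and 87670 to 112600, 6 markers) and DBA/2J (125000 to 150800 and 107200 to 138300, 3 markers). Taking the 7 strains in this order, from PWK/PhJ to DBA/2J, the share of all genes called lower was 14.5%, 3.97%, 11.9%, 4.64%, 9.73%, 13.6%, and 7.77%. Alb made up most of the hepatocyte sum, with a median count of 3791477, followed by Apoa1 with 432013. It was also the 1 hepatocyte marker of 9 called in CAST/EiJ, and beside 9.73% of all genes this count is not read as a shift of the list. The sum of 8 markers of stellate cells and fibroblasts was higher on WD without overlap in PWK/PhJ (145.5 to 225.7 CPM on CD and 302.8 to 613.7 on WD, 4 markers called higher) and 129S1/SvImJ (299 to 344.8 and 364.3 to 448.2, 3 markers), and none of the 8 was at 0 in any mouse. The sums overlapped in C57BL/6J (326.7 to 905.3 and 329.3 to 1072), where 4 markers were called higher. They also overlapped in A/J (212.2 to 309.3 and 300.7 to 384), with 2 markers beside 4.39% of all genes. No stellate marker was called in DBA/2J, WSB/EiJ, or CAST/EiJ. Dcn had the highest median count of the 8, with 8984, followed by Reln with 3256. That of 6 cholangiocyte markers was higher without overlap in PWK/PhJ (64.6 to 140.4 CPM and 159 to 528.2, 5 markers called higher), 129S1/SvImJ (21.4 to 43.2 and 59.8 to 102.1, 1 marker), CAST/EiJ (22.5 to 34.4 and 34.9 to 62.3, 1 marker), and WSB/EiJ (17.4 to 26.8 and 27.8 to 32.3), and of these 6 only Cftr was at 0, in 1 of the 93 mice. Spp1 made up most of the cholangiocyte sum, with a median count of 1423, followed by Sox9 with 234. These sums therefore mainly follow Spp1 and Alb and not each list as a whole. For the stellate and cholangiocyte counts, the shares of all genes called higher are those given above, and 9.77% for CAST/EiJ. A count of 1 cholangiocyte marker of 6 is thus not read as a shift of that list. Of 6 adipocyte markers, which bear on genes that fat cells also express, such as Fasn and Acly, the sum was 8.23 to 161 CPM in C57BL/6J on WD, 3.82 to 15.2 in DBA/2J on WD, and at most 33.7 in every other group, that value being C57BL/6J CD replicate 2, and each of the 6 was at 0 in some of the 93 mice, from 5 mice for Cfd to 42 for Lep. The highest counts of the adipocyte markers were 7248 for Cfd and 1896 for Cidea, beside 322 for Plin1, 288 for Adipoq, 154 for Retn, and 18 for Lep. The highest adipocyte sums thus mainly follow Cfd and not the list as a whole. The part of any of these cell types in the levels of the 9 genes was not tested.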

How the data were processed

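The authors sequenced liver RNA of 93 mice and mapped it to the C57BL/6J genome with STAR (2.7.1a in the submitters' processing notes). The deposited table holds raw counts per gene and mouse without normalization, and its 4 summary lines were left out of the tests. The annotation release and the strand setting of the counting are not given in the sources used here. Tools were limma 3.58.1 and edgeR 4.0.16 under R 4.3.3. Counts were filtered with filterByExpr (minimum count 10), scaled with TMM factors of 0.81 to 1.267, and fitted with voom and a mean for each of 14 groups. P-values were adjusted by Benjamini–Hochberg over the 19110 genes tested, at 0.05. For RPKM, the exon length of the GENCODE annotation (GRCm38) was used, and for log2 CPM a prior count of 2. Each of the 9 genes had at least 752 reads in every mouse. The pipeline was tested on simulated data. The simulated counts had the same dispersion for all genes, so that test does not bear on borderline calls of genes that varied widely between mice.

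The 9 genes and the lists were chosen with earlier results of these data known. Named from each list were up to 4 genes with the largest mean diet effect past the threshold, and the 5 or 3 genes most like the 9, Srebf1, or Mlxipl over groups, among genes whose mean log2 CPM reached 1. Some genes that this rule names are not reported here. Alternatives were edgeR's quasi-likelihood test, DESeq2 1.42.0, upper-quartile normalization, cohort or RNA integrity number as covariates, a filter of 10 counts in every mouse or only 1 count in any, separate fits, quality weights, and each mouse left out in turn. Replicate numbers follow accession order. Mice are separate animals, so p-values measure the spread between mice.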

Additional observations from a re-analysis of the deposited data

Results flagged for a closer look

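In 6 of 126 combinations of gene and group, 1 mouse stood far from the others by Dixon's criterion, which chance meets in about 1 in 20 groups. Me1 was 77.1 CPM in A/J WD replicate 3, the lowest of 6. Mlxipl was 513 CPM in WSB/EiJ WD replicate 4, the highest of 6. Srebf1 was 517 CPM in A/J CD replicate 3, the highest of 5, and 697 CPM in A/J WD replicate 6, the highest of 6. Thrsp was 671 CPM in PWK/PhJ CD replicate 3 and 285 CPM in WSB/EiJ CD replicate 5, each the highest of 6.

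The diet effect differed between strains by test. For 1 strain minus the mean of the other 6, the log2 difference was -1.50 for Srebf1 in 129S1/SvImJ, 0.82 for Mlxipl in CAST/EiJ and -0.52 in PWK/PhJ, -1.29 for Acacb in WSB/EiJ, 0.67 for Acaca in CAST/EiJ, 0.94 for Acly in DBA/2J, and for Me1 0.86 in DBA/2J, -0.76 in CAST/EiJ, and -0.86 in PWK/PhJ. The F test over the 7 strains in limma-voom gave adjusted p-values of 0.000144 for Srebf1, 0.00025 for Mlxipl, 0.0102 for Fasn, 0.02 for Acaca, 0.00229 for Acacb, 0.0471 for Acly, 0.000467 for Me1, and 0.0402 for Thrsp.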

How the results depend on the processing

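No paired analysis was possible because the labels number no replicates, so numbers follow accession order. Cohort within strain, RNA integrity number, and at least 10 counts in every mouse changed no call of a diet effect within a strain. The causes of the changes below were not tested.

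The number of genes lower on WD in DBA/2J, 0 by limma-voom, was 2 with quality weights, 1 with separate fits, 1 with edgeR, and 2 with DESeq2. In A/J, 1 became 0 with no filter and 2 with quality weights or separate fits. In WSB/EiJ, 7 lower became 3 with no filter, and 0 higher became 1 with quality weights or separate fits. In CAST/EiJ, 2 higher became 1 with separate fits. The diet effect differed between strains for 3 genes instead of 8 with no filter.

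With 1 mouse left out, lower genes numbered 2 to 5 in C57BL/6J, 0 to 1 in DBA/2J, 4 to 7 in 129S1/SvImJ, 5 to 7 in WSB/EiJ, and 5 to 7 in PWK/PhJ. Higher genes numbered 1 to 2 in C57BL/6J, 0 to 1 in DBA/2J, and 1 to 2 in CAST/EiJ. Differences between strains held for 5 to 9 genes.

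Effects near 0 changed sign: Mlxipl in C57BL/6J (0.11) was -0.0084 with quality weights and -0.0434 to 0.21 with a mouse left out. Pklr in DBA/2J (0.01) was -0.10 with quality weights, -0.029 with edgeR, -0.0227 with DESeq2, and -0.13 to 0.17 with a mouse left out. Pklr in CAST/EiJ (0.07) was -0.0037 with edgeR, -0.0116 with DESeq2, and -0.12 to 0.15 with a mouse left out. Acaca in CAST/EiJ (-0.02) was 0.0059 with upper-quartile normalization and -0.22 to 0.11 with a mouse left out. Leaving out a mouse also gave -0.38 to 0.055 for Pklr in C57BL/6J, -0.18 to 0.0738 for Me1 in DBA/2J, and -0.11 to 0.27 for Thrsp in CAST/EiJ.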
